A study of Mus musculus with 9 samples.

Results

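The libraries described here are the 5 bulk RNA-seq libraries of Ly6G+ neutrophils sorted from mouse bone marrow, out of 9 libraries in the series; the other 4 are from LSK cells, the stem and progenitor fraction of marrow. They were taken by their labels. Wild-type neutrophils, genotype Spop(+/+), are 2 libraries, and neutrophils with Spop(D/D), called knockout in the titles, are 3. All came from animals of 4 to 12 weeks with no treatment named in the labels. The sources used here name neither the deleted part of Spop nor a Cre line nor the animal behind each library. Libraries of a genotype may share an animal, so p-values here reflect only how much the libraries vary, which may be technical. Of 45076 genes in the table, 12836 had enough reads to be tested. The title of the series names the question, which is whether Spop holds back blood formation driven by inflammation by acting on MyD88.

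Spop encodes the substrate-binding subunit of a cullin-3 ubiquitin ligase, which marks bound proteins for degradation. MyD88 is the adaptor that carries signals from most Toll-like receptors and from receptors of the interleukin-1 family to NF-kB. Neutrophils mature in the marrow in a set order: promyelocytes fill primary (azurophil) granules with myeloperoxidase and elastase, myelocytes and metamyelocytes fill secondary granules with lactoferrin and cathelicidin, and band and segmented cells express gelatinase, chemoattractant receptors and the decoy interleukin-1 receptor. Because transcripts of each granule class are made at its own stage, the mix of these transcripts in sorted cells follows the mix of stages.

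The libraries held 21012702 to 27434086 reads and differed in what took up those reads. Levels below are CPM, the reads of a gene relative to the size of its library, scaled by TMM factors, which were 1.09 and 1.58 in wild-type libraries 1 and 2 and 1.02, 0.923 and 0.620 in knockout libraries 1, 2 and 3. Neutrophil genes were read in all 5 libraries: Ly6g, the sorted antigen, had 515 and 85.7 CPM in the wild-type libraries and 700, 351 and 914 CPM in the knockout libraries. Wild-type library 2 stood apart. Its correlation with the other 4 libraries over log2 CPM of the genes tested ran from 0.756 to 0.823, against 0.873 to 0.961 among those 4, and 15 neutrophil identity genes summed to 39588 CPM in it, against 226638 CPM in wild-type library 1 and 232600 to 686122 CPM in the knockout libraries. It held 2987 CPM of B cell markers, against 124 CPM in wild-type library 1 and 9.64 to 20.5 CPM in the knockout libraries. Its 13 MHC class II genes summed to 26238 CPM, against 673 CPM in wild-type library 1 and 70.5 to 133 CPM in the knockout libraries. T and NK cell markers summed to 2563 CPM in it and to at most 215 CPM elsewhere.

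**Figure D1:**
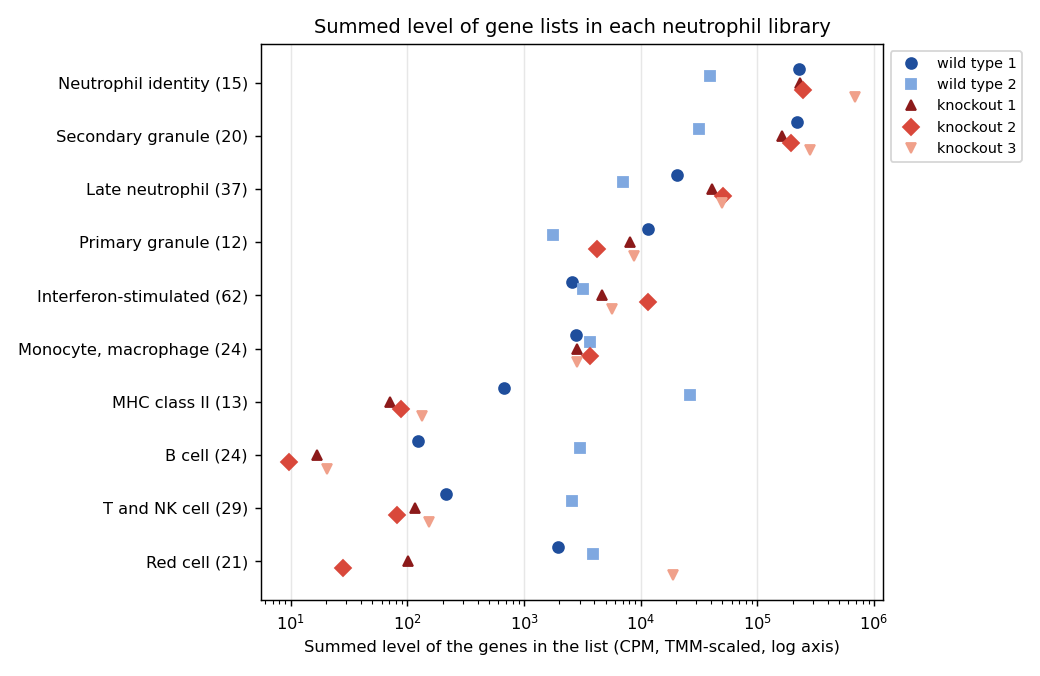
Summed level of 10 gene lists in each of the 5 neutrophil libraries, in TMM-scaled CPM on a log axis, with 1 point per library and the number of genes in brackets. Wild-type library 2 is lowest for the neutrophil lists and highest for MHC class II, B cell and T and NK cell genes, and knockout library 3 is highest for red cell genes.

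Knockout library 3 stood apart in another way: 21 red cell genes summed to 19072 CPM in it, against 1938 and 3886 CPM in the wild-type libraries and 102 and 28.2 CPM in the other knockout libraries. S100a8, a subunit of calprotectin, took 18.2% of its reads, against 1.80% to 5.95% of the reads of the other 4. The libraries also split by sex-linked transcripts along the same line as by genotype. Xist, made from the inactive X chromosome, had 300 and 2993 reads in the wild-type libraries and 0, 5 and 0 in the knockout libraries. The Y-linked Ddx3y had 1 and 0 reads in the wild-type libraries and 521, 651 and 400 in the knockout libraries. Genotype and sex therefore cannot be told apart in these 5 libraries, and every difference given here is between these 2 sets of libraries. The sex of the animals is not in the labels.

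No gene passed the test between knockout and wild-type neutrophils at an adjusted p of 0.05 (edgeR quasi-likelihood F test, Benjamini-Hochberg over 12836 genes); 1787 had an unadjusted p under 0.05, 615 of them higher in the knockout libraries (4.79% of genes tested) and 1172 lower (9.13%). Other tools read the same counts differently: DESeq2 called 891 genes, 278 higher and 613 lower (4.78% of genes), and limma-voom with library weights called 0. The smallest adjusted p by edgeR, 0.0542, belonged to the Y-linked Eif2s3y. Genes are therefore described by their level in each library and by whether the genotypes overlap. Every knockout library lay above both wild-type libraries for 2180 genes (17.0%) and below both for 2252 genes (17.5%), which are the shares against which the counts in each gene group are to be read. Under upper-quartile scaling, which moved the all-gene median log2 fold change from 0.02 to −0.12, these counts were 1680 and 2723. With 2 libraries against 3, the smallest two-sided p that an exact permutation test can give is 0.2, so none is given for single genes.

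Spop itself had 135 and 194 CPM in the wild types and 158, 178 and 210.0 CPM in the knockouts. The groups overlapped, with a log2 fold change of 0.15 (SE 0.403, 95% interval −0.81 to 1.10, adjusted p = 0.901 by edgeR). Reads were counted over the whole gene (GRCm38 chromosome 11, 95414080 to 95493406, plus strand), so exons outside the deleted part still count, and the total checks neither the deletion nor the labels. Of 45 listed genes for the ligase and its reported substrates that were in the table, 39 were tested. Without overlap, 6 lay above (15.4%, against 17.0% of all genes) and 3 below (7.69%, against 17.5%). The median log2 fold change was 0.12, against 0.02 for all genes. Ets2, which encodes an ETS transcription factor, had 27.3 and 13.1 CPM against 79.1, 58.5 and 59.2 CPM (log2 fold change 1.70, SE 0.454, adjusted p = 0.216 by edgeR).

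Genes of late neutrophil maturation were higher in the knockout libraries. Of 37 such genes, all tested, 27 lay above both wild-type libraries in every knockout library and 0 lay below, 21 had an unadjusted p under 0.05, all higher, and the median log2 fold change was 1.75. Their summed level was 20386 and 7005 CPM in the wild-type libraries and 40447, 50272 and 49865 CPM in the knockout libraries. Against wild-type library 1 alone, which carries few lymphocyte reads, 28 lay above and 0 below, where 29.2% of all genes lay above and 30.5% below, and the median was 1.15. Of the 37, 15 genes exceeded it more than 2-fold in each knockout library, 40.5% of the list against 6.41% of all genes. By DESeq2, 17 of the 37 passed, all higher, where 2.17% of all genes passed as higher. The list was drawn up with earlier results of these data known, so its shares are descriptions and no test of enrichment. In bulk RNA, fewer cells of a type and less RNA per cell cannot be told apart, and a different mix of stages and a different level per cell cannot be told apart either.

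The widest differences within that list were in the stefin A family, which encodes small inhibitors of cysteine proteases and lies in a cluster on chromosome 16. Stfa1 (GRCm38 chromosome 16, 36276951 to 36285373) had 5.16 and 1.27 CPM in the wild-type libraries and 121, 512 and 134 CPM in the knockout libraries. Stfa2 (36403992 to 36408457 on the same chromosome) had 1.81 and 0.212 CPM against 157, 511 and 46.2 CPM. Knockout library 2 was highest for both, and even the lowest knockout library was far above both wild types. Stfa3 had 3.10 and 0.484 CPM against 151, 421 and 69.4 CPM. Stfa2l1 had 15.5 and 11.4 CPM against 144, 335 and 133 CPM, with a log2 fold change of 3.92 (SE 0.627, adjusted p = 0.207 by edgeR). The members are near copies of each other, so how reads fell between them is uncertain, though all 4 were higher in each knockout library. Ifitm1, which encodes a membrane protein that restricts viral entry, had 46.9 and 46.6 CPM in the wild types and 736, 2406 and 815 CPM in the knockouts (log2 fold change 4.82, SE 0.828, adjusted p = 0.207 by edgeR).

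**Figure D2:**
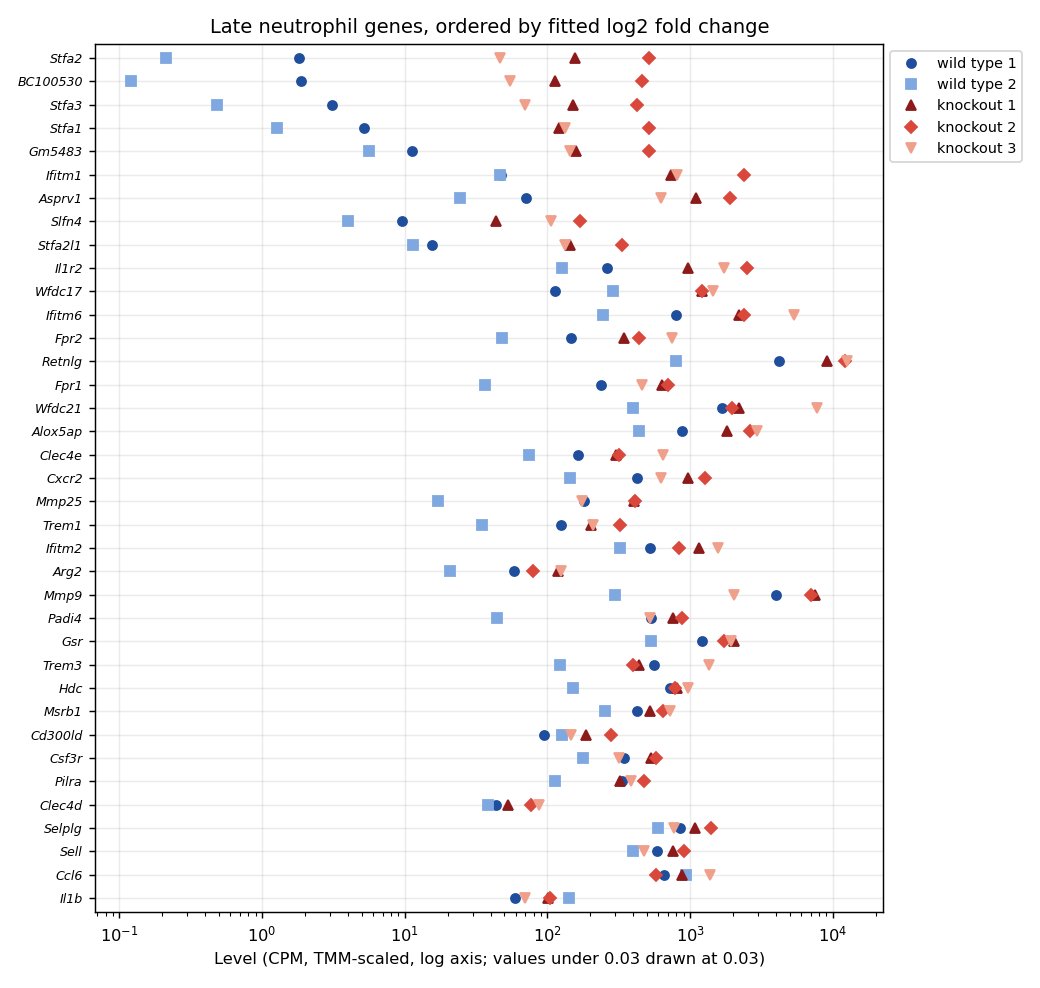
Level of each of the 37 late neutrophil genes in the 5 libraries, in TMM-scaled CPM on a log axis, ordered from the highest to the lowest fitted log2 fold change. The knockout points lie to the right of both wild-type points for 27 genes, and wild-type library 2 is the lowest point for most.

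Receptors by which neutrophils sense chemoattractants were more often above than below. Of 16 tested, 7 were above without overlap and 0 below. Against wild-type library 1 alone 9 were above and 3 below, where 29.2% and 30.5% of all genes were. As a share of all reads, without TMM factors, the list took 0.322% and 0.134% in the wild-type libraries. It took 0.488%, 0.519% and 0.322% in the knockout libraries, so knockout library 3 was level with wild-type library 1. Cxcr2, the receptor for CXCL1 and CXCL2 that draws neutrophils out of the marrow, had 424 and 143 CPM in the wild-type libraries and 970, 1268 and 623 CPM in the knockout libraries. Ccr1 had 248 and 89.1 CPM against 676, 722 and 1134 CPM. The formyl peptide receptor gene Fpr2, whose product senses bacterial peptides, had 147 and 47.8 CPM against 344, 439 and 747 CPM. These 3 had adjusted p values of 0.32, 0.223 and 0.229 by edgeR. Cxcr4, the receptor that holds cells in the marrow, overlapped, at 132 and 95.8 CPM against 70.4, 68.8 and 98.5 CPM. Retnlg, a secreted product of mature mouse neutrophils, had 4233 and 792 CPM against 9156, 12091 and 12679 CPM. Other late genes did not separate the genotypes. Mmp9, encoding gelatinase, overlapped, at 3984 and 297 CPM against 7561, 7038 and 2046 CPM, knockout library 3 being below wild-type library 1. Il1b, encoding interleukin-1 beta, also overlapped, at 58.9 and 142 CPM against 100, 104 and 69.4 CPM.

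Earlier granule genes did not share that pattern. Of 20 secondary granule genes, 6 lay above without overlap and 0 below, with a median log2 fold change of 0.92; without wild-type library 2 the median was 0.09, with 6 above and 4 below, close to or under the shares of all genes given above. Their summed level was 216388 and 31462 CPM in the wild-type libraries and 163471, 195450 and 282203 CPM in the knockout libraries. Ltf, encoding lactoferrin, had 28498 and 2243 CPM against 26191, 27095 and 14715 CPM. Camp, encoding cathelicidin, had 34582 and 4533 CPM against 11124, 7490.4 and 55060.3 CPM, the 3 knockout libraries lying on both sides of wild-type library 1. Mmp8, encoding neutrophil collagenase, was above in each knockout library, at 2729 and 452 CPM against 5738, 8746 and 3265 CPM.

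Primary granule genes leaned lower once wild-type library 2 was set aside. Of 12 genes, 1 lay above and 2 below with both wild types, and 2 above and 6 below against wild-type library 1 alone. Of all genes, 29.2% lay above that library and 30.5% below. The median log2 fold change of the 12 genes against it was −0.73. Against wild-type library 2 alone the median was 2.36, so this direction too rests on wild-type library 1. Mpo, encoding myeloperoxidase, had 4081 and 191 CPM in the wild-type libraries and 2436, 416 and 751 CPM in the knockout libraries. Elane, encoding neutrophil elastase, had 3274 and 305 CPM against 1624, 466 and 2031 CPM. Both were highest in wild-type library 1 and lowest in wild-type library 2, and the adjusted p was 0.792 for Mpo and 0.898 for Elane by edgeR. Cebpe, the transcription factor needed for secondary granules, had 649 and 48.9 CPM against 284, 317 and 395 CPM. Of 28 S phase genes, 2 lay below without overlap and 0 above with both wild types. Their median log2 fold change was −0.11, with a median of −0.54 against wild-type library 1 alone and of 0.87 against wild-type library 2 alone. The median of 28 genes of G2 and mitosis was 0.41, −0.34 and 2.0 in the same order, so for both lists the direction turned with the wild type that was kept.

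A ratio taken within a library does not depend on its scaling or on how many other cells it holds, as long as those cells do not express the genes. The summed level of late genes over that of secondary granule genes was 0.0942 in wild-type library 1, 0.223 in wild-type library 2, and 0.247, 0.257 and 0.177 in the knockout libraries. Each knockout library was above wild-type library 1, but knockout library 3 lay below wild-type library 2, so the genotypes overlapped. The ratio of primary to secondary granule genes was 0.0535 and 0.0559 in the wild types and 0.0496, 0.0217 and 0.0308 in the knockouts, with no overlap.

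**Figure D3:**
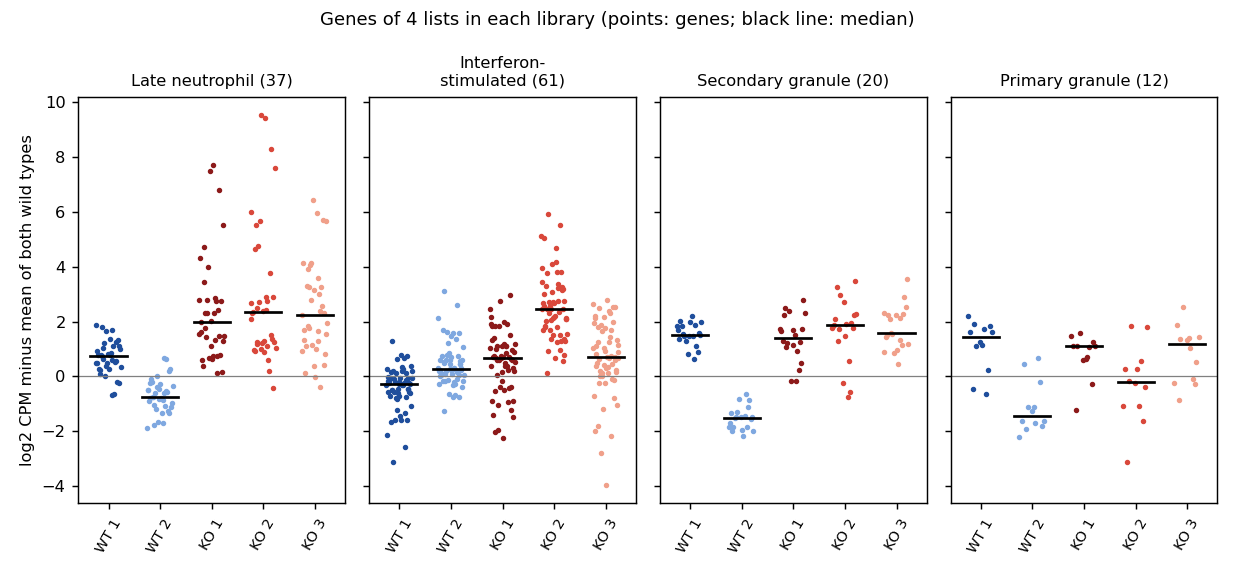
Each point is a gene of 1 of 4 lists in 1 library, as its log2 CPM minus the mean of both wild-type libraries, with a black line at the median of the genes and the number of genes above each panel. The late neutrophil medians of the 3 knockout libraries are 1.98, 2.36 and 2.26, those of the interferon-stimulated genes are 0.66, 2.46 and 0.69, and the wild-type libraries mirror each other around 0 by construction.

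Genes induced by interferon were higher in the knockout libraries, above all in knockout library 2. Of 62 in the table, 61 were tested; 30 lay above both wild types in every knockout library and 0 below, 20 had an unadjusted p under 0.05, all higher, and the median log2 fold change was 1.48. Knockout library 2 was the highest of the 5 libraries for 57 of the genes. Their summed level was 2553 and 3210 CPM in the wild-type libraries and 4652, 11526 and 5618 CPM in the knockout libraries. That split depends on the TMM factors. As a share of all reads, the list took 0.277% and 0.505% in the wild-type libraries. It took 0.472%, 1.06% and 0.348% in the knockout libraries, so by this measure the genotypes overlapped. Without knockout library 2, 30 genes lay above and 6 below, where 19.7% and 21.8% of all genes did, and the median was 0.54. Against wild-type library 1 alone, 45 lay above and 0 below, where 29.2% and 30.5% of all genes did. Of the 61, 26 exceeded that library more than 2-fold in each knockout library (42.6%, against 6.41% of all genes). DESeq2 called 15 of the 61, all higher. This list too was drawn up with earlier results of these data known, so its shares are descriptions only.

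The interferon-stimulated response element, a DNA motif bound by IRF proteins, was searched as GAAA, any 2 bases and GAAA again, on both strands in the 250 bases before each start site (RefSeq, GRCm38.p6). Of the 52 interferon-stimulated genes with such a window 26 held it (50%), against 936 of all 27025 genes (3.46%), 2 of 27 late neutrophil genes, and 0 of 18 secondary granule genes. A match is a description of letters and not a bound site. The promoters of 4 genes whose levels are described next are shown from 5′ to 3′ on the gene's strand, with matches in capitals. Overlapping matches form 1 run of capitals, as in Isg15, and TTTC, 2 bases and TTTC is the motif read on the other strand.
Ifit1: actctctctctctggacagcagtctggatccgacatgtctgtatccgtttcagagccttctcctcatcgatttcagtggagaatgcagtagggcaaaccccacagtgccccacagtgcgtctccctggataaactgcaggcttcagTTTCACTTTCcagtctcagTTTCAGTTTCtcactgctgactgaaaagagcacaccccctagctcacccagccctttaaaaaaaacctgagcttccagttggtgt
Isg15: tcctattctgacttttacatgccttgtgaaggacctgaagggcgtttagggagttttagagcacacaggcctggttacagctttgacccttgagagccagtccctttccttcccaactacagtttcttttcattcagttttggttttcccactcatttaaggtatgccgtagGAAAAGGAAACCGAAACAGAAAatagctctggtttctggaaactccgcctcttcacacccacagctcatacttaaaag
Rsad2: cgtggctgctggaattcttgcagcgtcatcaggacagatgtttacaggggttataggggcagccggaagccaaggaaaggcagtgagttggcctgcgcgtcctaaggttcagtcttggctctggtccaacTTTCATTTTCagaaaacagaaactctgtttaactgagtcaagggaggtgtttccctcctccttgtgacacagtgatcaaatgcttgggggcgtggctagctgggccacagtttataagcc
Oas3: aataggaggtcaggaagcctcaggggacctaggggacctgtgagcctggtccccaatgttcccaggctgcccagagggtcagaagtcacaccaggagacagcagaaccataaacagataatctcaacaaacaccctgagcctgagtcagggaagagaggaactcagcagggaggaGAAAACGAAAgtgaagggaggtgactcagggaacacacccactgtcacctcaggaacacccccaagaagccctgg
The Ifit1 window (chr19:34640639-34640888, plus strand) holds 2 matches, the Isg15 window (chr4:156200819-156201068, minus strand) 3, and those of Rsad2 (chr12:26456453-26456702, minus strand) and Oas3 (chr5:120777660-120777909, minus strand) 1 each.

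Ifit1, whose product binds viral RNA that lacks the host cap mark, had 7.01 and 10.7 CPM in the wild-type libraries and 48.1, 303 and 54.1 CPM in the knockout libraries (log2 fold change 3.93, SE 1.0, adjusted p = 0.216 by edgeR). Oas3, which makes the second messenger that activates RNase L, had 68.3 and 24.5 CPM against 318, 390.5 and 237 CPM, and was the most even across the knockout libraries of the 4 genes shown above. Rsad2, encoding viperin, had 31.6 and 43.4 CPM against 92.9, 301 and 164 CPM. Isg15, a ubiquitin-like modifier, had 15.4 and 28.9 CPM against 31.7, 195 and 122 CPM, knockout library 1 being only just above wild-type library 2. Irf7, the factor that amplifies interferon production, had 91.0 and 62.2 CPM against 162, 700 and 203 CPM. Rtp4 had nearly equal wild types, at 41.6 and 42.9 CPM, and 157, 272 and 197 CPM in the knockouts (log2 fold change 2.30, SE 0.446, adjusted p = 0.207 by edgeR). Not all members lay apart: Ifi44 stood out in knockout library 2 only, with 657 reads against 6 to 24 in the others.

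Genes of the Toll-like and interleukin-1 receptor pathway, the route that runs through MyD88, were more often above than below. Of 36 in the table, 35 were tested; 16 lay above without overlap and 3 below, 10 had an unadjusted p under 0.05 and were higher and 2 were lower, and the median log2 fold change was 0.58. Without wild-type library 2 the counts were 19 above and 3 below, with a median of 0.71, while 29.2% of all genes lay above. As a share of all reads, without TMM factors, the list took 0.197% and 0.240% in the wild-type libraries. It took 0.343%, 0.495% and 0.227% in the knockout libraries, so by this measure the genotypes overlapped. Myd88 itself had 156 and 118 CPM in the wild-type libraries and 274, 345 and 236 CPM in the knockout libraries, with a log2 fold change of 1.06 (SE 0.431, 95% interval 0.04 to 2.08, adjusted p = 0.345 by edgeR). It lies at GRCm38 chromosome 9, 119335934 to 119341411, minus strand, and 11.3% of its exon bases overlap Acaa1a on the other strand, whose reads cannot be told apart without strand. The gap in Myd88 also depends on the TMM factors, since without them knockout library 3 lay below both wild-type libraries. SPOP acts on proteins, and protein was not measured here.

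Among the receptors, Il1rap, encoding the chain shared by the receptors for interleukin-1, interleukin-33 and interleukin-36, was the most even: 10.7 and 10.7 CPM in the wild types and 54.0, 44.1 and 48.0 CPM in the knockouts (log2 fold change 2.19, SE 0.362, adjusted p = 0.207 by edgeR). Il1r2, the decoy receptor that binds interleukin-1 without signalling, had 261 and 126 CPM against 974.7, 2501 and 1739.8 CPM (log2 fold change 3.17, SE 0.719, adjusted p = 0.209 by edgeR). Cd14, the co-receptor that hands lipopolysaccharide to TLR4, had 28.9 and 33.4 CPM against 84.1, 314 and 173 CPM. Tlr4 had 30.8 and 12.8 CPM against 102, 61.0 and 50.3 CPM, without overlap. Without TMM factors, Tlr4 in knockout library 3 was just below wild-type library 1. Tlr2, the receptor for bacterial lipoproteins, overlapped narrowly, at 69.2 and 37.1 CPM against 231, 181 and 69.1 CPM, since knockout library 3 was level with wild-type library 1. Il1rn, encoding the interleukin-1 receptor antagonist, had 131 and 83.8 CPM against 174, 273 and 399 CPM.

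Adaptors and kinases follow the receptors in the pathway. Tirap, the adaptor that brings MyD88 to TLR2 and TLR4, had 43.3 and 19.7 CPM in the wild types and 77.0, 96.5 and 48.8 CPM in the knockouts. Irak4, the first kinase of the MyD88 complex, had 53.2 and 40.3 CPM against 70.9, 86.6 and 57.5 CPM. Traf6, the ubiquitin ligase that follows it, had 22.0 and 22.1 CPM against 33.3, 30.3 and 29.9 CPM. Without TMM factors, knockout library 3 lay below both wild types for Tirap, Irak4 and Traf6. Irak1 overlapped, at 76.7 and 67.5 CPM against 79.4, 69.5 and 49.3 CPM. The 3 genes below both wild types in every knockout library were Ticam2, the bridging adaptor by which TLR4 signals without MyD88 (8.79 and 11.3 CPM against 4.44, 2.13 and 2.87 CPM), Sigirr, an orphan receptor that damps interleukin-1 signalling (13.2 and 23.7 CPM against 6.08, 9.05 and 5.63 CPM), and Unc93b1, which carries Toll-like receptors to endosomes (418 and 482 CPM against 356, 388 and 210 CPM).

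**Figure D4:**
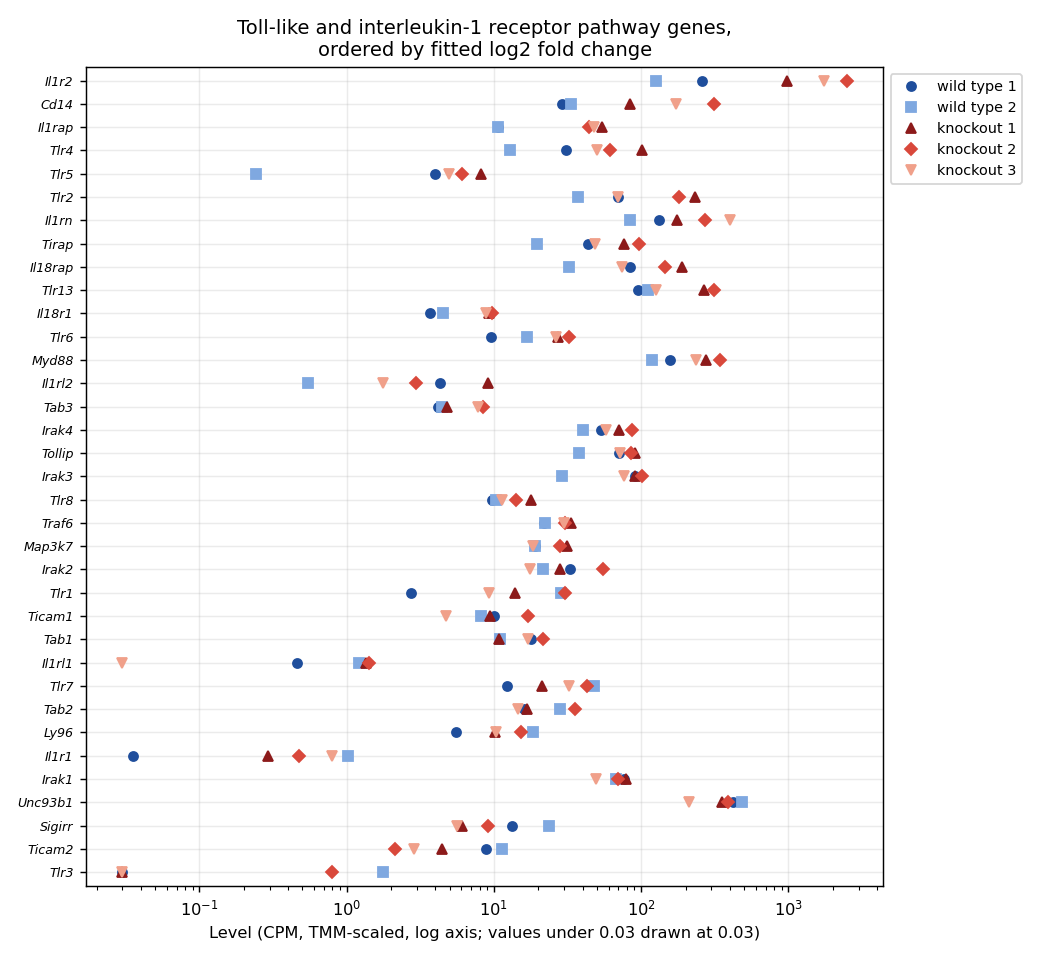
Level of the 35 tested genes of the Toll-like and interleukin-1 receptor pathway in the 5 libraries, in TMM-scaled CPM on a log axis, ordered by fitted log2 fold change. Il1r2, Cd14 and Il1rap head the order with all knockout points to the right of both wild types, and Sigirr and Ticam2 near its end show the reverse.

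Several single genes outside these lists had wide gaps between the genotypes. Nos2, encoding inducible nitric oxide synthase, had 16 and 1 reads in the wild-type libraries and 2580, 3823 and 720 in the knockout libraries, or 0.569 and 0.0302 CPM against 94.0, 151 and 44.0 CPM (log2 fold change 8.34, SE 1.26, adjusted p = 0.207 by edgeR). Lipg, encoding endothelial lipase, had 6.30 and 1.12 CPM against 137, 318 and 97.3 CPM. Igfbp6, encoding a binding protein for insulin-like growth factors, had 1.32 and 2.96 CPM against 28.7, 31.96 and 22.3 CPM. Adora3, an adenosine receptor that neutrophils use in migration, had 1.81 and 1.33 CPM against 14.5, 25.9 and 10.6 CPM. In all 4 the lowest knockout library was above the highest wild type by at least 5.86-fold. Single genes were named for a small p or a wide gap, so such a gap follows from the choice. Nos2 could be tested only because the knockout libraries held enough of its reads.

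Genes of the response to G-CSF through STAT3, the cytokine route that drives neutrophil output, lay above without overlap for 9 of 20 and below for 2. Against wild-type library 1 alone, 11 lay above and 4 below, where 29.2% and 30.5% of all genes did. As a share of all reads, without TMM factors, the list took 2.81% and 0.645% in the wild-type libraries. It took 3.27%, 3.92% and 2.45% in the knockout libraries, so by this measure the genotypes overlapped. Il4ra had 109.6 and 104 CPM in the wild types and 423, 560 and 171 CPM in the knockouts. Socs3, a feedback inhibitor of the G-CSF receptor, had 16.5 and 44.9 CPM against 87.8, 133 and 59.2 CPM. Saa3, an acute phase protein, had 0.712 and 2.57 CPM against 18.8, 1242 and 71.9 CPM, so that a single knockout library holds most of its reads. The 2 below were Pim3 and Il10ra, the latter at 32.4 and 148 CPM against 20.9, 18.9 and 13.9 CPM. Csf3r, the G-CSF receptor gene, overlapped, at 346 and 178 CPM against 536, 578 and 320 CPM.

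Among genes of glucose use, 14 of 24 lay above without overlap and 0 below, with a median log2 fold change of 0.77. Against wild-type library 1 alone 14 lay above and 3 below, where 29.2% and 30.5% of all genes did, and the median was 0.23. Only 1 exceeded that library more than 2-fold in each knockout library (4.17%, against 6.41% of all genes). That gene was Slc2a1, encoding the glucose transporter GLUT1, with 31.8 and 29.2 CPM against 144, 102 and 71.0 CPM (log2 fold change 1.79, SE 0.442, adjusted p = 0.216 by edgeR). Of 25 ribosome biogenesis genes, 8 lay below without overlap and 0 above, and the median was −0.90. It was −0.40 without wild-type library 2, −1.40 without knockout library 1, and −0.06 without both wild-type library 2 and knockout library 3. Their summed level was 463 and 757 CPM in the wild-type libraries and 466, 372 and 201 CPM in the knockout libraries, and 19 of the 25 were highest in wild-type library 2, which held the most lymphocyte reads; the part of those cells was not tested. Rrp9, which processes ribosomal RNA, had 10.3 and 15.9 CPM against 4.11, 2.13 and 2.20 CPM, and Nop56, a core protein of the same machinery, had 30.1 and 40.6 CPM against 15.4, 11.4 and 8.44 CPM. Myc, the factor that drives many of these genes, had 39.8 and 38.6 CPM against 23.3, 16.0 and 8.50 CPM (log2 fold change −1.30, SE 0.471, adjusted p = 0.296 by edgeR).

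Of 22 myeloid transcription factors, 6 lay above (27.3%, against 17.0% of all genes) and 4 below (18.2%, against 17.5%). Against wild-type library 1 alone, 8 lay above and 9 below, where 29.2% and 30.5% of all genes did. The list thus went in both directions, and the genes below are single members. Irf8, which steers progenitors to monocytes and away from granulocytes, had 115 and 275 CPM in the wild types and 46.1, 16.3 and 10.4 CPM in the knockouts (log2 fold change −3.0, SE 0.719, adjusted p = 0.216 by edgeR). Runx3 had 18.7 and 38.3 CPM against 7.90, 11.5 and 4.53 CPM. Irf8 and Runx3 are also expressed by lymphocytes, monocytes and dendritic cells, whose markers were lower in the knockout libraries, and the part of those cells in the result was not tested. Bcl6 was above, at 42.7 and 33.2 CPM against 89.8, 93.1 and 56.1 CPM, as was Klf6, at 235 and 180 CPM against 414, 383 and 441 CPM.

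Many of the genes that were lower in the knockout libraries are markers of other blood cells. All 19 tested B cell genes, 9 of 12 MHC class II genes, 17 of 29 T and NK cell genes, 10 of 14 dendritic cell genes and 13 of 24 monocyte and macrophage genes lay below both wild types in every knockout library, with median log2 fold changes of −7.88, −7.33, −5.27, −4.33 and −2.07. Of 24 B cell genes in the table, 5 had too few reads to be tested. A gene with few knockout reads could be tested only where both wild types held enough reads, so the filter itself favoured such counts. Against wild-type library 1 alone the medians were −3.78, −2.70, −1.08, −2.06 and −1.42 in the same order. They are over the genes tested in that fit, which held 22 B cell and 28 T and NK cell genes. Cd79a, part of the B cell receptor, had 16.8 and 542 CPM in the wild types and 1.60, 0.988 and 3.12 CPM in the knockouts. Cd74, the MHC class II invariant chain, had 355 and 13177 CPM against 10.1, 32.9 and 42.5 CPM. C1qb, a complement gene of resident macrophages, had 24.9 and 126 CPM against 0.656, 3.003 and 5.69 CPM. Cx3cr1, the fractalkine receptor of monocytes, had 20.5 and 64.7 CPM against 1.09, 1.26 and 0.245 CPM. The monocyte markers did not all share this: Ly6c2 lay above, at 1250.2 and 447 CPM against 1556, 1902 and 2410.3 CPM, and F13a1 overlapped.

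**Figure D5:**
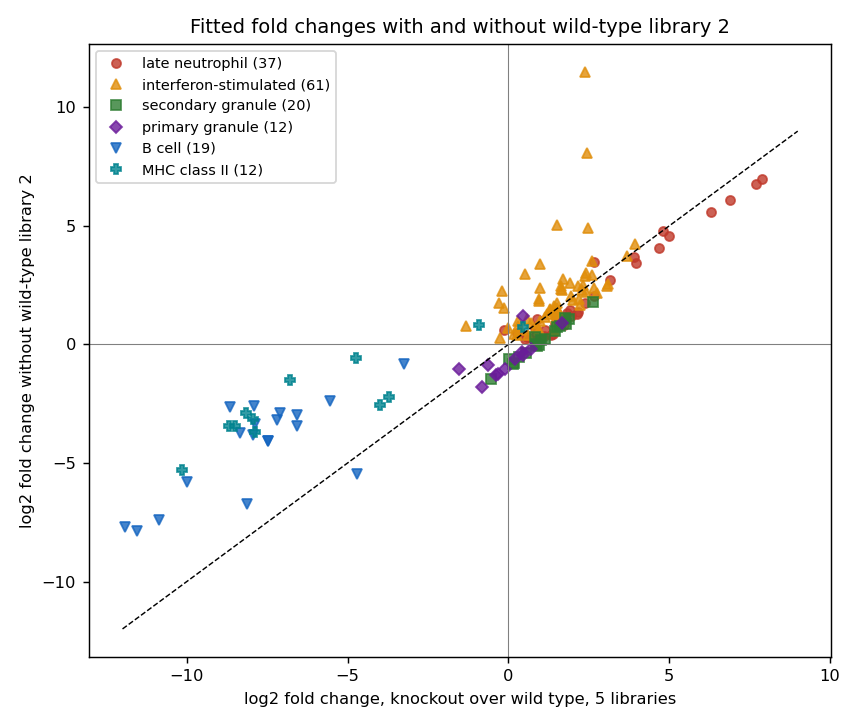
Fitted log2 fold change of each gene of 6 lists with all 5 libraries (horizontal) against the same without wild-type library 2 (vertical); the dashed line marks equal values. B cell and MHC class II genes move up towards 0 without that library, late neutrophil genes stay above 0, and secondary granule genes fall to around 0.

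Some lower genes outside those lists were well above the knockout libraries in each wild type. Padi2, encoding a peptidylarginine deiminase, had 41.3 and 45.4 CPM in the wild types and 0.656, 0.316 and 0 CPM in the knockouts, or 1160 and 1502 reads against 18, 8 and 0 (log2 fold change −6.96, SE 1.0, adjusted p = 0.207 by edgeR). Its paralogue Padi4, by which neutrophils citrullinate histones, overlapped, at 533 and 44.6 CPM against 762, 878 and 526 CPM. Cmtm3 had 24.6 and 30.7 CPM against 3.86, 4.23 and 2.94 CPM. Nav1 had 8.93 and 18.2 CPM against 0.146, 0.0790 and 0 CPM. Fcgrt, encoding the neonatal Fc receptor that spares IgG from breakdown, had 25.8 and 67.7 CPM against 0.474, 0.237 and 0.795 CPM, and the smallest p among the genes that were lower (log2 fold change −6.56, SE 0.705, adjusted p = 0.143 by edgeR). Hpgd, which inactivates prostaglandins, had 15.1 and 105 CPM against 0.109, 0.237 and 0.184 CPM. Apart from Padi4, these genes were named for a small p or a wide gap, so the gap follows from the choice. Those with few knockout reads could be tested only where both wild types held enough reads. The share of these genes that comes from neutrophils was not tested.

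The effect of genotype in neutrophils was set against that in LSK cells in a single edgeR fit of all 9 libraries, as an interaction over 13387 genes. The second knockout LSK library is labelled as neutrophils in its cell type field and as LSK in its title and source name; it was kept as LSK, and Ly6g had 0 CPM in it, as in the other 3. The effect differed for 4 genes, all Y-linked (0.0299% of those tested), while 2102 had an unadjusted p under 0.05. Myd88 did not pass: its log2 fold change was 1.06 in neutrophils and 1.04 in LSK cells. The difference in the fit of all 9 libraries was −0.04 (SE 0.413). Fold changes given here for each population come from a fit of its own libraries, so they need not subtract to the difference. Fcgrt was lower in both, by a log2 fold change of −6.56 in neutrophils and −1.34 in LSK cells, where it had 27.9 and 22.8 CPM in the wild types and 9.88 and 10.1 CPM in the knockouts; the difference of −5.28 had an adjusted p of 0.148 by edgeR. Mpo had 978 and 1365 CPM in wild-type and 9661 and 12259 CPM in knockout LSK cells, a log2 fold change of 3.23, against −0.83 in neutrophils; the difference of −4.11 had an adjusted p of 0.299 by edgeR. The neutrophil value rests on wild-type library 1, being 2.72 without it, and it was also above 0 by limma-voom (0.41) and with the replicate number as a block (0.19). Padi2 was level in LSK cells, at 59.5 and 66.1 CPM against 50.2 and 53.1 CPM.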

How the data were processed

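Libraries were prepared from RNeasy Micro RNA with a SMART-Seq v4 Ultra Low Input kit, per the labels' protocols. Per the submitters' processing notes, bcl2fastq, STAR, featureCounts and DESeq2 were used, and builds mm10 and GRCm38; versions, annotation and strand setting are not given in the sources consulted here. The values used are the raw read counts per gene that the authors deposited; normalized tables were left aside.

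Counts were tested with edgeR 4.0.16 in R 4.3.3 (TMM, filterByExpr, robust quasi-likelihood fit, Benjamini-Hochberg over all genes tested, threshold 0.05), after a check on simulated data. limma 3.58.1 and DESeq2 1.42.0 were alternatives. Between any pair of libraries the chi-square per gene was at least 95.8, so none is a repeat deposit.

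The members, the 40 gene lists and the tests were chosen with earlier results of these data known, so list counts are descriptions. Named genes were a fixed set, those with the smallest p or widest gap in each direction, those highest in a single library, and up to 4 per list. Other list members given with values were chosen after those values were seen. Motifs were searched in RefSeq promoter windows of GRCm38.p6. Stefin, globin, MHC, Ifit, Oas and other families of near copies have uncertain counts. Positions are from a GENCODE annotation of GRCm38.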

Additional observations from a re-analysis of the deposited data

Results flagged for a closer look

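Y-linked genes were the only ones whose effect of genotype differed between neutrophils and LSK cells past an adjusted p of 0.05 in the edgeR interaction test over 13387 genes. The difference in log2 fold change, neutrophils minus LSK cells, was 10.63 for Ddx3y (adjusted p = 0.00527), 11.58 for Eif2s3y (adjusted p = 0.00527), 11.35 for Uty (adjusted p = 0.0053) and 11.17 for Kdm5d (adjusted p = 0.0179). The wild-type neutrophil libraries held at most 1 read of each, so these sizes depend on the prior count and are no bounds. Ddx3y had 124 CPM in both wild-type LSK libraries and 102 and 73.1 CPM in the knockout LSK libraries, so its transcripts were read in all 4. The wild-type neutrophil libraries are thus the ones that differ from the other 7 in these genes.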

How the results depend on the processing

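The count of genes past the threshold, 0 by edgeR, was 1 with TMM factors computed without genes of other cells, 334 with no filter on low counts, 528 with a spread shared with the LSK libraries and 891 by DESeq2, and ran from 0 to 601 when libraries were left out, the 601 being without wild-type library 1. The lone wild-type sample is then assumed to vary like the knockout libraries. No more than 2 numbers are shared by the genotypes and nothing says that they pair libraries (correlations of deviations 0.239 and −0.024); with the replicate number as a block 334 genes passed. Genes without overlap between the genotypes numbered 4432, 2905 with at least 1 CPM in every library, 5228 to 10556 without 1 library (7905 without wild-type library 2) and 10398 without both wild-type library 2 and knockout library 3. The interaction count of 4 was 10 with no filter, 1012 by DESeq2, and 3 to 1349 without 1 library, the highest being without wild-type library 1.

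Median log2 fold changes ran, without 1 library, from −0.73 to 2.36 for primary granule, 0.093 to 3.32 for secondary granule, 1.15 to 2.88 for late neutrophil, −8.78 to −3.78 for B cell and −8.80 to −2.70 for MHC class II genes, each extreme being without a wild-type library. Without both wild-type library 2 and knockout library 3 they were −1.04, 0.14, 1.16, −4.52 and −3.26. With the replicate block the secondary granule median was 1.66, the late 2.17, the B cell −7.08 and the MHC class II −5.86, and by limma-voom 1.56, 2.02, −6.91 and −5.89. For B cell and MHC class II genes the medians were −7.32 and −7.88 with no filter, −5.09 and −4.55 with at least 1 CPM in every library, and −7.25 and −7.93 with the shared spread.

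Signs changed for 7 named genes, none of which passed the main test. Spop was at −0.0031 under upper-quartile scaling and from −0.037 to 0.40 without 1 library. Il1b was at 0.60 without wild-type library 2, −0.58 without wild-type library 1, 0.016 without knockout library 3, 0.78 without wild-type library 2 and knockout library 3, 0.16 with the replicate block and 0.091 by limma-voom. Mpo was at 2.72 without wild-type library 1, −1.92 without knockout library 1, 0.19 with the block and 0.41 by limma-voom, and Elane at 2.22 without wild-type library 1, −1.65 without wild-type library 2 and knockout library 3, 0.0018 without knockout library 2 and 0.14 by limma-voom. Ltf was at 3.40 without wild-type library 1, −0.36 without wild-type library 2 and −0.11 without that and knockout library 3. Camp was at 2.48 without wild-type library 1, −0.53 without wild-type library 2, −1.07 without knockout library 3, −1.91 without both, −0.46 with the block and −0.087 by limma-voom. Cebpe was at 2.82 without wild-type library 1, −1.13 without wild-type library 2 and knockout library 3, 0.75 with the block and 0.77 by limma-voom. The cause was not tested for any of these.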

Other observations

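Some genes were high in a single library. Wild-type library 1 alone held much Ctse, encoding cathepsin E, with 505 CPM against 12.4 to 67.0 CPM in the others, and Chit1, encoding chitotriosidase, with 117 CPM against 0.997 to 11.9 CPM. Wild-type library 2 held 453 CPM of Gzma, encoding granzyme A of NK and cytotoxic T cells, against 0.583 to 4.46 CPM. Knockout library 2 held 73.4 CPM of Cxcl10, an interferon-induced chemokine, against 0.854 to 8.46 CPM. Knockout library 3 held 9322 CPM of Hbb-bs, encoding beta globin, against 1.03 to 2005 CPM, and Alas2, of haem synthesis, followed the same order of libraries.

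Genes of cell survival were more often above than below. Of 23 tested, 8 lay above both wild types in every knockout library (34.8%, against 17.0% of all genes). Below both lay 2 (8.70%, against 17.5%). Against wild-type library 1 alone, 12 lay above and 2 below, where 29.2% and 30.5% of all genes did. Against wild-type library 2 alone, 11 of 25 lay above and 10 below, where 32.7% and 39.2% of all genes did. As a share of all reads, without TMM factors, the list took 0.113% and 0.207% in the wild-type libraries. It took 0.169%, 0.168% and 0.111% in the knockout libraries, so by this measure the genotypes overlapped. Bcl2l1, encoding the survival protein BCL-XL, had 62.3 and 22.8 CPM in the wild types and 74.7, 122 and 122 CPM in the knockouts, and Bax, encoding a protein that opens the mitochondrial outer membrane, had 44.0 and 83.8 CPM against 28.99, 27.6 and 33.8 CPM. The adjusted p was 0.346 for Bcl2l1 and 0.294 for Bax by edgeR. Of 14 heat shock genes tested, 5 lay below (35.7%, against 17.5% of all genes) and 0 above, and the median log2 fold change was −0.56. Wild-type library 2 was the highest library for 11 of them, and without it the median was −0.20.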
